A study of Homo sapiens with 16 samples.

Results

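The transcripts of 47 genes that carry human cells from G1 into S phase and copy the genome were followed in 3 cancer cell lines with and without functional STAG2. The genes came from a written list of G1/S cyclins, E2F factors, origin licensing and helicase proteins, replication polymerases and nucleotide and histone supply genes. No measured value was used as a rule for the list, but earlier results of these data were known when it was chosen. All 47 had an array row annotated to that gene alone, among 18417 such genes, and 46 lay above the filter on dim rows that left 12978 genes for testing. DBF4, the subunit that activates the kinase CDC7, was the member below it.

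RNA came from 16 untreated, growing cultures, 1 Affymetrix Human Gene 1.0 ST array each, of 3 established lines: H4 and 42MGBA, brain tumour lines with a mutant STAG2, and HCT116, a colorectal carcinoma line in which the gene is intact. STAG2 is a subunit of cohesin, the ring that holds sister chromatids together. In H4 the mutant cultures were the parental line and clones 10 and 12, which had not recombined, and the corrected ones were the knock-in clones 8-1, 8-3 and 88-1 after Cre. In 42MGBA the deficient cultures were the parental line and clones 53 and 92, which carried the knock-in before Cre, and the corrected ones were the post-Cre clones 53-1, 53-7 and 92-6. In HCT116 the knockouts of STAG2 were clones 7 and 21, and their controls were clones 24 and 27, which had not recombined and kept a wild-type gene. Array values are log2 expression, and every difference is deficient minus proficient unless stated otherwise. Values of a group are given in the order in which its cultures are named here, with wild-type clones 24 and 27 before knockouts 7 and 21 in HCT116 unless a sentence names them otherwise. Each culture is a single clone or a parental population, and some clones are related. By their numbers 8-1 and 8-3 share a parent clone, and 53-1, 53-7 and 92-6 come from the deficient clones 53 and 92. The main fit treats all cultures as independent. Its p-values therefore measure the spread between related and unrelated clones together with that between cultures and arrays. Fits that average such clones or block by parent clone are given at the end.

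Cells enter S phase when cyclin D and cyclin E kinases release E2F factors from the retinoblastoma protein, and E2F factors then drive transcription of cyclin E, of licensing factors and of the replication machinery. Replication origins are licensed in G1, when the origin recognition complex, CDC6 and CDT1 load the MCM ring on DNA. In S phase the kinases CDC7 and CDK2, with CDC45 and the GINS complex, turn that ring into the active helicase that polymerases, the PCNA clamp and its loader follow. Cohesion is set up at the same forks.

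Promoters of many of these genes hold the letters that E2F factors recognise. Shown are 5 picked among those that hold them, of members of the cyclin and kinase, E2F, MCM and GINS groups described below. Each is printed from 200 bases before to 20 bases after the gene start in RefSeq, assembly GRCh38.p14, on the strand of the gene, with the E2F letters in capitals.
CDC25A (chr3:48188398-48188617, minus strand): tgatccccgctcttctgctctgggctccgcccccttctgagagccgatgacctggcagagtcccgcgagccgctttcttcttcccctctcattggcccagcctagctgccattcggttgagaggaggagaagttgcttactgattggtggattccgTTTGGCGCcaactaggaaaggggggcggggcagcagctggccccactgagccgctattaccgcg
E2F2 (chr1:23531214-23531433, minus strand): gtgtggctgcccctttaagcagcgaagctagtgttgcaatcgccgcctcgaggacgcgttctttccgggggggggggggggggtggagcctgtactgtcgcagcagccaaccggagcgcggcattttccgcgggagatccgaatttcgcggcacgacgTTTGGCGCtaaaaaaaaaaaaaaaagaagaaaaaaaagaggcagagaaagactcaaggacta
MCM2 (chr3:127598211-127598430, plus strand): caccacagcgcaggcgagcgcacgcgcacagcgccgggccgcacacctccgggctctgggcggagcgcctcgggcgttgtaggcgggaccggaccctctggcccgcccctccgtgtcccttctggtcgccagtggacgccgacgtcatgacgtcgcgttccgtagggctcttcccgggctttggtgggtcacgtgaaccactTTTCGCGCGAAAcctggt
MCM6 (chr2:135876424-135876643, minus strand): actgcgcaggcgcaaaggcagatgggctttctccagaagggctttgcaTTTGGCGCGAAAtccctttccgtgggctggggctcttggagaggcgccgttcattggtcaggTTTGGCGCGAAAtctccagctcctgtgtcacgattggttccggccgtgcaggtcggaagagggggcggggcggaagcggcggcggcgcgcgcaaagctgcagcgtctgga
GINS2 (chr16:85688935-85689154, minus strand): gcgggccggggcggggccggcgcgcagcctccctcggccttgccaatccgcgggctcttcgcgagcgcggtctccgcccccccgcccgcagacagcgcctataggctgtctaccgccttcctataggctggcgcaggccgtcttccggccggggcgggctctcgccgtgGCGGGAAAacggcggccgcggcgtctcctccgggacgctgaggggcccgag
The run of E2F letters began 44 bases before the start of CDC25A, 42 before E2F2 and 31 before GINS2. In MCM2 it began at base 3 of the gene, and in MCM6 it stood at 152 and again at 90 bases before the start. MCM2 and MCM6 held the letters on both strands in overlapping form, so that the run is 12 bases long.

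The letters searched were TTTCCCGC, TTTCGCGC, TTTGCCGC and TTTGGCGC on both strands, in a window from 250 bases before to 50 after the gene start. Of the 47 members 39 had such a window, and 21 of these (53.8%) held at least 1 run. The share was 5.26% over the 10308 windows of tested genes and 3.31% over all 35116 windows of the table. By role it was 4 of 5 windows in the MCM group, 3 of 4 among CDC45 and GINS, 2 of 2 among the E2F genes and 1 of 4 in the nucleotide supply group. A second set of letters that marks promoters of late cell cycle genes, the CHR (TTTGAA and TTCGAA, both strands), was in the windows of 3 members (7.69%), DBF4, MCM6 and RRM1. In a list of G2/M and mitosis genes kept for comparison the order was the other way, with E2F letters in 2 of 24 windows (8.33%) and CHR letters in 19 (79.2%). CCAAT on either strand was in 22 member windows (56.4%) and 36.0% of those of tested genes, and it overlapped an E2F run in 1 member. These are matches of letters and do not show binding. The STAG2 differences described below had close medians in tested members with E2F letters and without them. They were -0.29 with and -0.27 without in HCT116, -0.18 and -0.16 in H4, and -0.14 and -0.15 in 42MGBA. For corrected H4 minus wild-type HCT116 they were -0.69 and -0.87. A link between the letters and the differences was not tested.

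**Figure D1:**
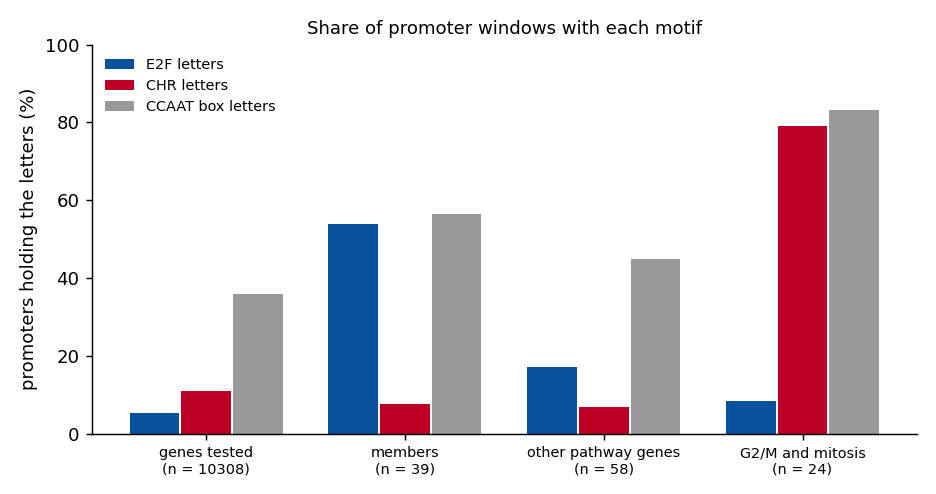
Share of promoter windows, in percent, that hold E2F, CHR or CCAAT letters, for all tested genes, the members, other genes of the pathway and G2/M genes, with the number of windows under each group. E2F letters were in 53.8% of member windows against 5.26% of those of tested genes, and CHR letters in 79.2% of G2/M windows against 7.69% of member windows.

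The STAG2 transcript separated the groups in H4 and HCT116 but not in 42MGBA. It read 6.57, 6.96 and 6.62 in mutant H4 against 8.95, 8.91 and 8.87 in corrected H4, and 6.57 and 7.14 in the HCT116 knockouts against 9.28 and 9.30 in the wild-type clones. The differences were -2.19 (limma adjusted p = 2.37e-05) and -2.44 (limma adjusted p = 0.000115), the second of which did not pass when HCT116 was fitted alone. In 42MGBA it read 4.75, 5.34 and 5.60 in the deficient cultures and 5.65, 5.41 and 5.53 in the corrected ones, a difference of -0.30 (limma adjusted p = 1.00), so the 42MGBA groups are named by their labels only. No 42MGBA array had a median above 5.05, while those of H4 and HCT116 began at 6.23 and 6.24. That line is therefore on another scale, and its levels are set against the others only as percentiles within an array. EPCAM, an epithelial surface marker, stood at percentile 97.0 in HCT116 and 21.7 in H4, and GFAP, the astrocyte filament, was below percentile 51 in every line. The marker lists were mixed. Of 11 epithelial and colorectal markers, 5 lay above percentile 75 in HCT116, 2 in H4 and 1 in 42MGBA, with 4, 6 and 6 below 50. Of 9 glial and neural stem markers, 1 lay above percentile 75 in HCT116, 2 in H4 and 2 in 42MGBA, with 7, 7 and 5 below 50. No array pair held identical values. The number of arrays limits the precision, and in such bulk RNA fewer cells in S phase and less transcript per cell cannot be told apart.

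No member passed the adjusted threshold of 0.05 between deficient and proficient cultures in any line. In H4 limma called 0 of 46 members, against 3.31% of all tested genes (429 genes). At an unadjusted p under 0.05 there were 0 members, against 16.4% of all genes in either direction. That 0 depended on the arrays. Without the parental array 17 members, all lower, had an unadjusted p under 0.05, and without corrected clone 8-3 it was 15, all lower. The other 4 fits without 1 array gave 0 or 1. Over all genes limma called 631 without the parental array and 169 without 8-3. Shares of all genes at an unadjusted p were computed for the main fit only. Member counts from other fits, here and below, have no such background. In 42MGBA it called 0 of 46, against 0.0% of all genes, again with 0 at an unadjusted p under 0.05, where 2.9% of all genes did so in the lower direction, and 0 to 4 members without 1 array, the most without clone 53-1. In HCT116 it called 0 of 46, against 0.131% of all genes (17 genes), and 8 members had an unadjusted p under 0.05: RFC5, CDC25A, MCM10, CDC45, CCNE1, E2F2, MCM2 and POLD1. Only RFC5 did so without clone 24 or without clone 21, 5 members did without clone 27 and 4 without clone 7, and with the HCT116 arrays fitted alone the number was 19. What the members shared was a small shift in one direction. The median difference over the 46 was -0.16 in H4, where the median over all tested genes was 0.02, -0.13 in 42MGBA against -0.03, and -0.28 in HCT116 against -0.01.

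In HCT116 every one of the 46 members had a lower mean in the knockouts, and for 40 both knockout arrays lay below both wild-type arrays. Over all tested genes 22.1% were separated downward in that way and 18.5% upward, and no member was separated upward. Because members moved together between arrays, as described below, these counts are not 46 independent results. The 6 members whose arrays overlapped were RPA2, CDT1, GINS1, RRM2, TK1 and TYMS, and 3 of these supply nucleotides. At an unadjusted p under 0.05 the share of lower genes was 8 of 46 members against 4.08% of all genes. In H4 42 of 46 means were lower but in no member were the 3 mutant arrays all below the 3 corrected arrays, against 8.68% of all genes, nor all above them, against 12.1%. In 42MGBA 38 of 46 means were lower and the arrays separated in 2 members, CDC25A and MCM2, against 6.33% of all genes, and in 0 members upward, against 2.57%. Averaged over the lines all 46 differences were below 0, with a median of -0.20 against -0.01 for all genes. This mean gives equal weight to 42MGBA, whose values lie on a narrower scale and whose STAG2 transcript did not separate its groups. Averaged over H4 and HCT116 alone 45 of 46 were lower, with a median of -0.23 against 0.00. In the mean of all 3 lines limma called 0 members, against 0.139% of all genes. There 20 members had an unadjusted p under 0.05 where 5.84% of all genes did so in the lower direction. That number was 4 without HCT116 clone 24, 12 without H4 clone 8-1, 13 without HCT116 clone 21 or H4 clone 88-1, 32 without the H4 parental array and 35 without both parental arrays.

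**Figure D2:**
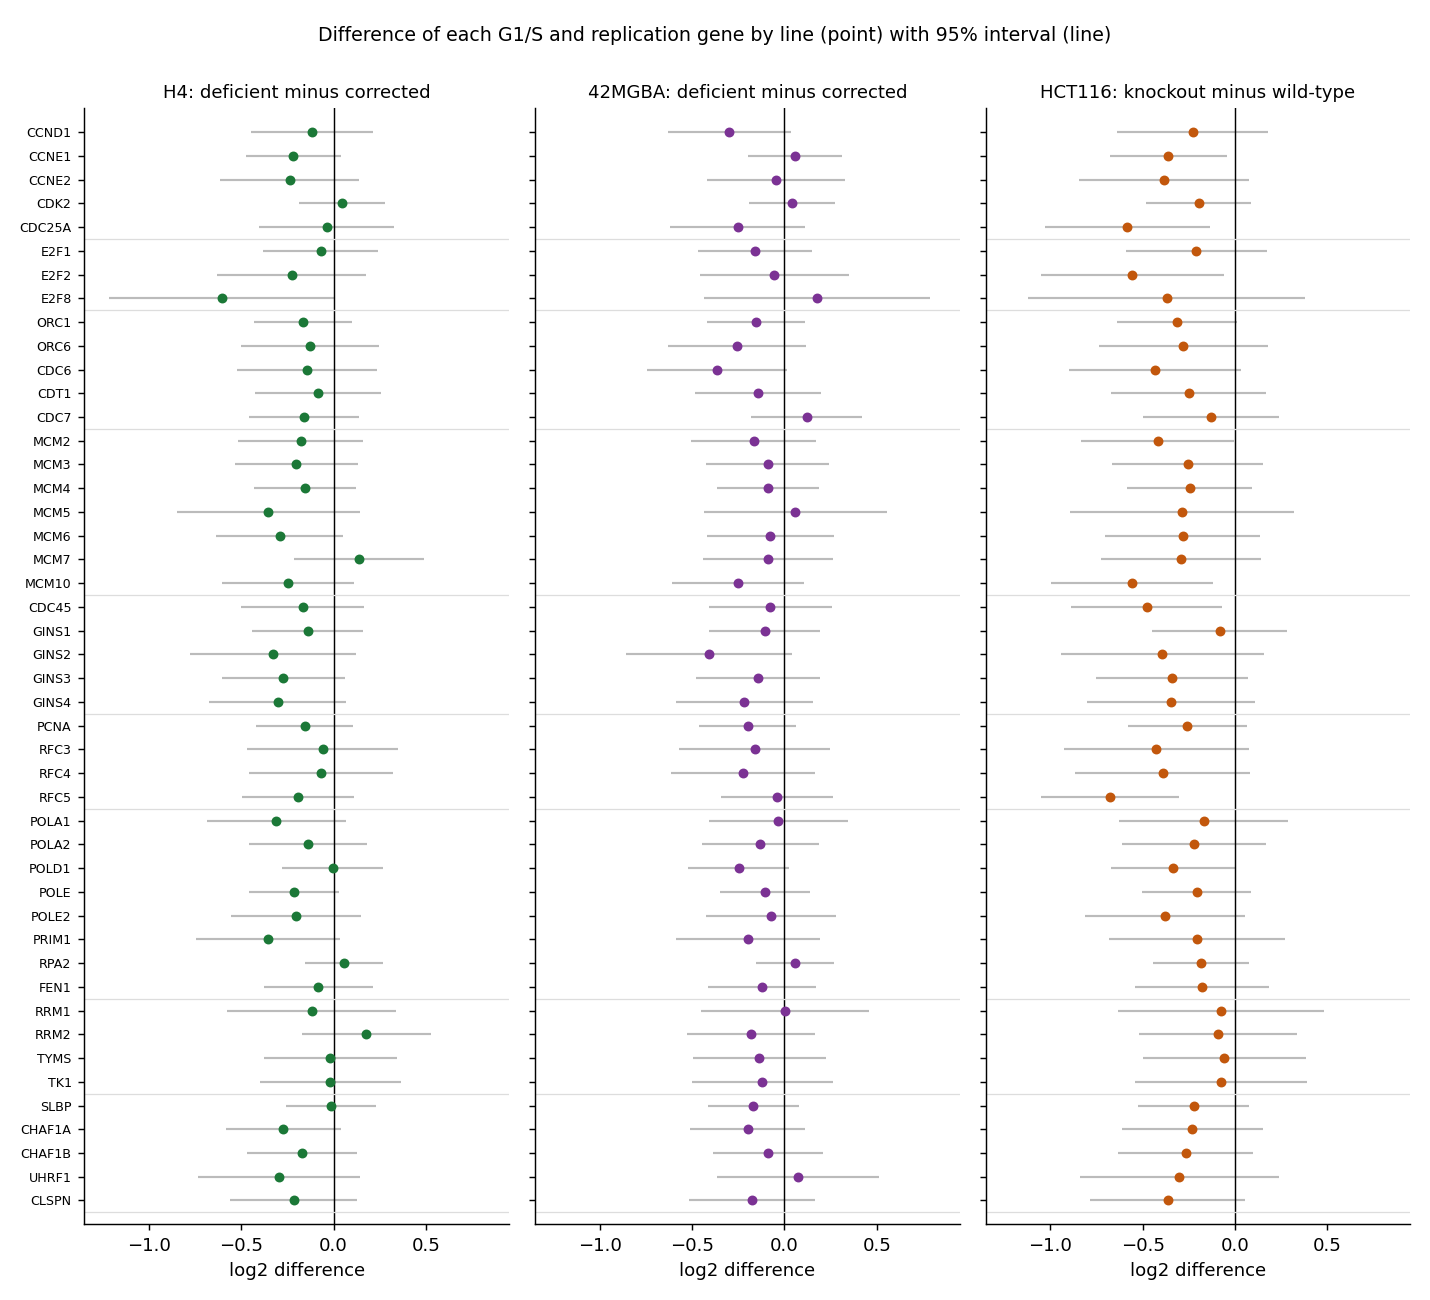
Difference between deficient and proficient cultures (log2, points) with its 95% interval (lines) for the 46 tested members in H4, 42MGBA and HCT116, ordered by role. All 46 lie below 0 in HCT116, 42 in H4 and 38 in 42MGBA, and none passed the adjusted threshold in any line.

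Among the G1/S cyclins and their kinase all 5 members were lower in the HCT116 knockouts, with a median of -0.36. CDC25A, the phosphatase that activates CDK2, read 8.99 and 8.75 in the wild-type clones and 8.62 and 7.95 in the knockouts. Clone 21 was the low array, and the difference was -0.58 (SE 0.21, a 1.50-fold lower level, limma adjusted p = 0.505). Without clone 21 it was -0.24, and the 4 fits that each leave out 1 array ranged from -0.92 to -0.24. In 42MGBA CDC25A read 5.40, 5.35 and 5.31 in the deficient and 5.58, 5.70 and 5.54 in the corrected cultures. These groups did not overlap but lay only 0.25 apart on the log2 scale (a difference of -0.25, limma adjusted p = 1.00). In H4 it read 7.75, 7.13 and 7.27 against 7.61, 7.25 and 7.39, and the groups overlapped throughout.

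Cyclin E1, CCNE1, which drives CDK2 at the start of S phase, read 9.47 and 9.40 in wild-type HCT116 and 9.28 and 8.87 in the knockouts (a difference of -0.36, limma adjusted p = 0.580). Clone 21 was again the lower one, and the difference was -0.16 without it. In H4 CCNE1 read 8.79, 8.44 and 8.57 in mutant against 8.83, 8.66 and 8.95 in corrected cultures, with the parental array among the corrected values. In 42MGBA it was 5.60, 5.51 and 5.73 against 5.60, 5.60 and 5.47. Cyclin E2, CCNE2, differed by -0.38 in HCT116, -0.24 in H4 and -0.04 in 42MGBA. Cyclin D1, CCND1, the partner of CDK4 and CDK6, had the lowest difference of the 5 in 42MGBA, at 6.89, 7.22 and 7.07 against 7.05, 7.48 and 7.54 (-0.30, 95% interval -0.63 to 0.03). CDK2 itself had differences of 0.04 in H4, 0.04 in 42MGBA and -0.20 in HCT116.

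The 3 E2F genes differed in how much they varied between cultures. E2F2, an activator, read 7.97 and 7.83 in wild-type HCT116 and 7.34 and 7.35 in the knockouts, so that both knockouts stood apart from both wild-type clones (-0.56, SE 0.23, limma adjusted p = 0.594). E2F1, the other activator, read 8.32 and 8.25 against 7.99 and 8.16 (-0.21), and in H4 8.02, 7.54 and 7.92 against 8.20, 7.66 and 7.84. E2F8, a repressor that is itself an E2F target, was the member with the largest spread in H4, an SD of 0.59 over its 6 arrays. It read 7.29, 6.02 and 6.55 in mutant and 7.50, 6.71 and 7.46 in corrected H4, with clone 10 the lowest and 8-3 the lowest of the corrected ones. The H4 difference was -0.61 (95% interval -1.22 to 0.01, limma adjusted p = 0.310). Without the parental arrays of H4 and 42MGBA it was -0.94 and passed the threshold, the 1 member to do so under any alternative in H4, whereas without clone 10 it was -0.31. Without the H4 parental array alone the lowest adjusted p of any member by limma was 0.0558. In 42MGBA E2F8 went the other way at 0.18, with the parental array at 5.07 and the other 5 arrays between 4.30 and 4.64, and the sign turned to -0.06 without the parental array.

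Of the licensing genes all 5 tested were lower in HCT116, with a median of -0.28, and 4 were separated. CDC6, which loads the MCM ring, read 10.78 and 10.94 in wild-type and 10.49 and 10.36 in knockout HCT116 (-0.43, limma adjusted p = 0.662). In 42MGBA it was the member with the smallest p in the lower direction, at 6.61, 6.20 and 6.16 in deficient and 6.32, 7.03 and 6.72 in corrected cultures (-0.36, limma adjusted p = 1.00). The parental array stood above corrected clone 53-1 there, so the groups overlapped. ORC1, the largest subunit of the origin recognition complex, read 9.22 and 9.03 against 8.77 and 8.84 in HCT116 (-0.31). In H4 ORC1 was 8.88, 8.46 and 8.67 against 9.00, 8.57 and 8.93, a pattern in which clones 10 and 8-3 were the low arrays of their groups. CDT1, the loading partner of CDC6, had overlapping arrays in HCT116 at 9.49 and 9.16 against 8.98 and 9.17. CDC7, the kinase that fires origins, differed by -0.13 in HCT116 with separated arrays. Its difference of 0.12 in 42MGBA became -0.07 when 1 array was left out. DBF4 read between 5.35 and 5.76 in H4 and between 5.46 and 5.67 in HCT116, below the array medians.

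All 7 MCM genes were lower and separated in HCT116, within a range of -0.56 to -0.24. MCM10, which is not part of the ring but helps to open it, read 10.11 and 10.02 in wild-type and 9.61 and 9.42 in knockout clones (-0.56, SE 0.21, limma adjusted p = 0.533). MCM2 read 10.27 and 10.20 against 9.72 and 9.90 (-0.42), and MCM6 10.73 and 10.70 against 10.42 and 10.44 (-0.28). The remaining ring subunits MCM3, MCM4, MCM5 and MCM7 differed by -0.26, -0.24, -0.29 and -0.29. In H4 the same genes were ordered by clone more than by genotype. MCM2 was 9.89, 9.11 and 9.67 in mutant and 9.91, 9.51 and 9.78 in corrected H4, and MCM5 was 9.62, 8.58 and 9.36 against 9.82, 9.23 and 9.57. Clone 10 was the lowest array for both, and parental H4 stood with the corrected clones 8-1 and 88-1. MCM7 was the MCM gene with a higher mean in mutant H4 (0.14, limma adjusted p = 0.768), and that difference was 0.01 without the parental array, 0.00 without corrected clone 8-3 and 0.34 without clone 10. In 42MGBA MCM2 read 6.83, 6.62 and 6.79 against 6.95, 6.93 and 6.86, the second of the separated members of that line.

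CDC45 and the 4 GINS subunits, which complete the helicase, had a median difference of -0.35 in HCT116, -0.27 in H4 and -0.14 in 42MGBA. CDC45 read 9.18 and 9.12 in wild-type and 8.64 and 8.71 in knockout HCT116 (-0.48, SE 0.19, limma adjusted p = 0.566). GINS2 had the largest member difference in the mean of the lines, -0.38 (SE 0.13, limma adjusted p = 0.356). Its values were 9.84 and 9.52 against 9.30 and 9.27 in HCT116, 9.13, 8.24 and 8.63 against 9.31, 8.63 and 9.04 in H4, and 5.18, 4.69 and 4.77 against 5.11, 5.29 and 5.46 in 42MGBA. The mean was lower in each line, and in H4 and 42MGBA the parental array stood inside the corrected range. GINS4 and GINS3 differed by -0.35 and -0.34 in HCT116, while GINS1 differed by -0.08 with overlapping arrays.

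The clamp loader held the largest difference in HCT116. RFC5, a small subunit of the complex that places PCNA on DNA, read 10.30 and 10.31 in the wild-type clones and 9.66 and 9.60 in the knockouts. Both pairs were tight and lay well apart, a 1.60-fold lower level (-0.68, SE 0.17, 95% interval -1.05 to -0.31, limma unadjusted p = 0.00151, adjusted p = 0.244). Fits without 1 of the 4 arrays gave -0.71 to -0.65. In H4 RFC5 read 8.77, 8.33 and 8.51 against 8.78, 8.54 and 8.86, and in 42MGBA 6.57, 6.39 and 6.29 against 6.15, 6.67 and 6.56, and both sets overlapped. RFC3 and RFC4 differed by -0.43 and -0.39 in HCT116. PCNA, the clamp itself, read 11.21 and 11.09 against 10.92 and 10.86 there (-0.26) and was -0.16 in H4 and -0.20 in 42MGBA.

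The polymerases, the primase, the single-strand binding protein RPA2 and the flap nuclease FEN1 had a smaller median in HCT116, -0.21, with 7 of 8 separated. POLD1, the catalytic subunit of polymerase delta, read 7.94 and 7.84 in wild-type and 7.52 and 7.58 in knockout clones (-0.34, limma adjusted p = 0.633). POLE, that of polymerase epsilon, read 9.02 and 9.01 against 8.79 and 8.82 (-0.21). Its partner POLE2 read 8.38 and 8.43 against 8.11 and 7.95 (-0.38). In H4 POLE was 8.28, 7.95 and 7.97 in mutant against 8.31, 8.08 and 8.45 in corrected cultures (-0.21, limma adjusted p = 0.375), where clones 10 and 12 were the low arrays. PRIM1, the catalytic primase subunit, was 9.17, 8.41 and 9.15 against 9.40, 8.92 and 9.48 in H4 (-0.36, limma adjusted p = 0.353), and the low value was clone 10 alone. RPA2 was nearly level in H4 and 42MGBA, at 0.06 in each, and differed by -0.19 in HCT116 with overlapping arrays.

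The 4 nucleotide supply genes had the role median nearest to 0 in HCT116 (-0.08) and in H4 (-0.02), but not in 42MGBA (-0.13). In HCT116 1 of the 4 was separated, RRM1, the large subunit of ribonucleotide reductase, at 10.80 and 10.75 against 10.70 and 10.70. TYMS, thymidylate synthase, read 10.97 and 10.85 against 10.84 and 10.86. TK1, thymidine kinase, read 11.31 and 11.14 against 10.95 and 11.35, with the highest and the lowest value both in the knockouts. RRM2, the small reductase subunit, was the member with the smallest p in the higher direction in H4, at 9.22, 8.80 and 9.02 in mutant and 9.17, 8.52 and 8.82 in corrected cultures (0.18, limma adjusted p = 0.664). Without corrected clone 8-3 that difference was 0.02, and without 8-1 it was 0.35. RRM1 varied most of all members between 42MGBA arrays, from 7.67 to 8.59, and the parental array was the highest.

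The remaining 5 members serve histone supply, chromatin assembly and the fork checkpoint, and all 5 were separated in HCT116, with a median of -0.27. CLSPN, claspin, which links the fork to the checkpoint kinase, read 9.48 and 9.45 against 9.19 and 9.01 (-0.36, limma adjusted p = 0.699), and its second array row gave -0.34. CHAF1A, the large subunit of chromatin assembly factor 1, read 9.80 and 9.62 against 9.50 and 9.45 (-0.23). In H4 CHAF1A was 9.13, 8.61 and 8.70 against 9.16, 8.82 and 9.27 (-0.27, limma adjusted p = 0.378). CHAF1B, its partner, and SLBP, which binds histone transcripts, differed by -0.27 and -0.22 in HCT116. For UHRF1, which brings maintenance methylation to new DNA, the row used gave -0.30 in HCT116 and -0.29 in H4, whereas its other, dimmer row gave -0.18 and 0.13.

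**Figure D3:**
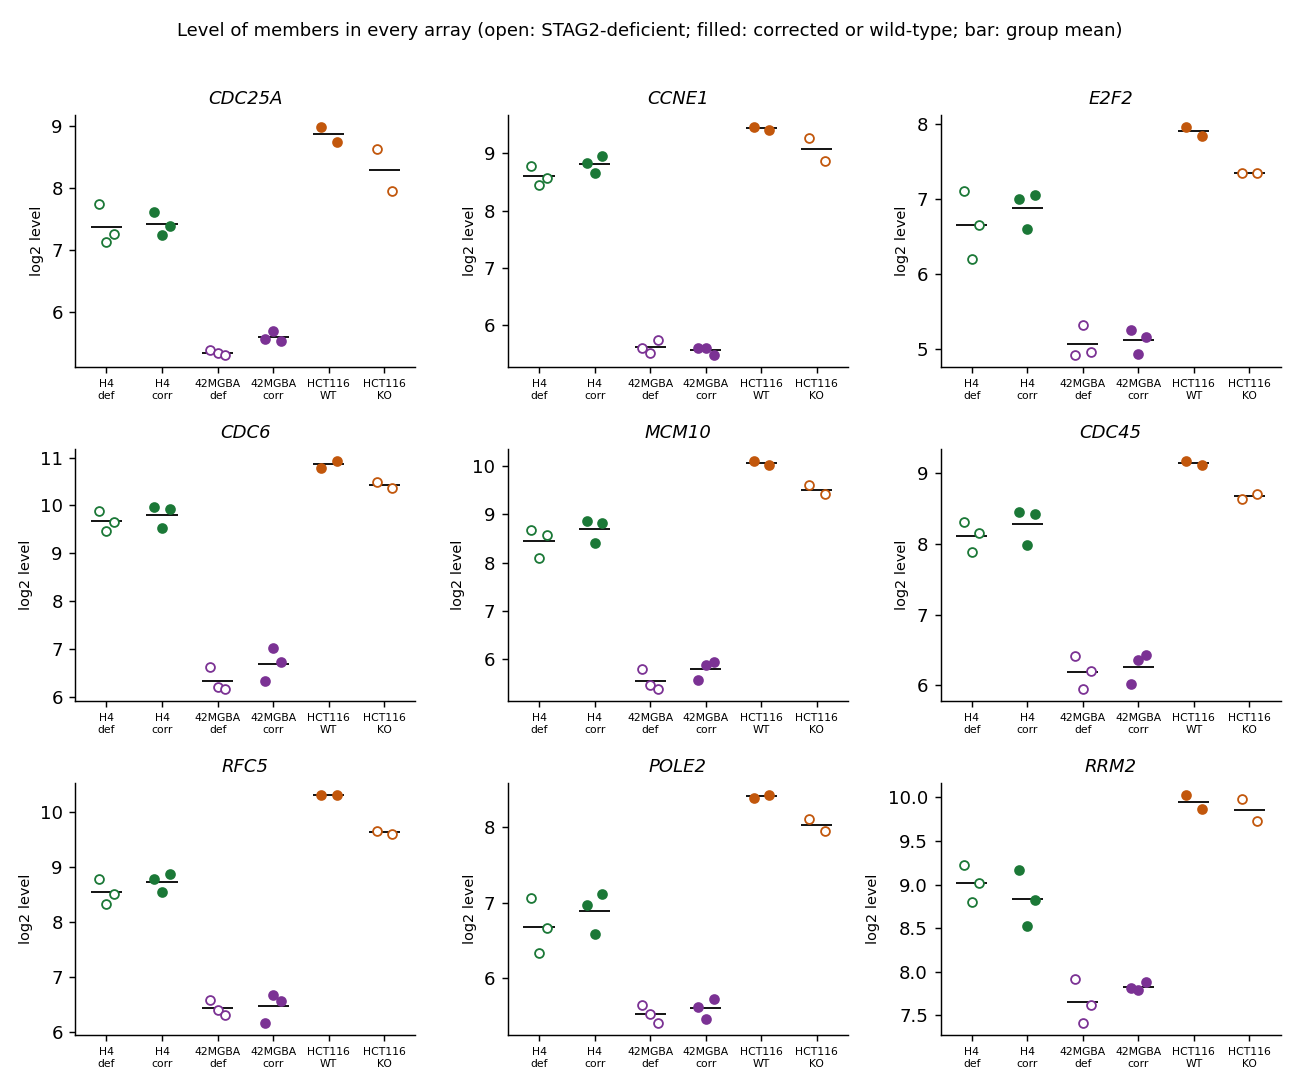
Expression level (log2) of 9 members in each of the 16 arrays, by line and STAG2 group; each point is 1 array, open for deficient cultures, and the bar is the group mean. The 42MGBA arrays are on another scale. In HCT116 both knockout arrays of RFC5 lie below both wild-type arrays (9.66 and 9.60 against 10.30 and 10.31), while the H4 groups overlap.

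The members moved together within a line, so that a few arrays set the H4 and 42MGBA medians. Each array was scored by the median, over the 46 members, of its deviation from the line's mean. In H4 the scores were 0.16, -0.33 and -0.06 in the mutant and 0.23, -0.18 and 0.19 in the corrected cultures. Clone 10, which is mutant, was the lowest of the 6 arrays in 38 of 46 members, against 25.1% of all genes. The corrected clone 8-3 was below the line's mean in 46 of 46 members, against 55.7% of all genes, so low scores occurred in both genotypes. Without clone 10 the H4 median was -0.05 and 30 of 46 members were lower, and without 8-3 it was -0.28 and 44 were lower. It was -0.25 without the parental array, -0.09 without 8-1, and -0.06 with 31 lower when arrays were weighted. In 42MGBA the scores were 0.12, -0.21 and -0.11 against -0.04, 0.10 and 0.14. Clone 53 was the lowest array in 24 of 46 members, against 23.6% of all genes, and without it the median was -0.04 with 28 of 46 lower. It was -0.21 without the parental array, -0.19 without 53-1, and -0.08 without 92-6. The parental arrays of both lines scored above 0.

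The HCT116 scores split by genotype, at 0.19 and 0.10 in the wild-type clones and -0.12 and -0.14 in the knockouts, with 2 clones in each group. H4 cultures of the same genotype stood further apart than this, at 0.16 and -0.33 among the mutant and 0.23 and -0.18 among the corrected ones. Whether the HCT116 split reflects clones rather than genotype was not tested. Clone 24 was the highest array in 38 of 46 members, against 25.9% of all genes. Leaving out any 1 of the 4 arrays gave medians from -0.34 to -0.22 with 43 to 46 of 46 members lower. In such a fit a lone array is assumed to vary like the other groups.

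**Figure D4:**
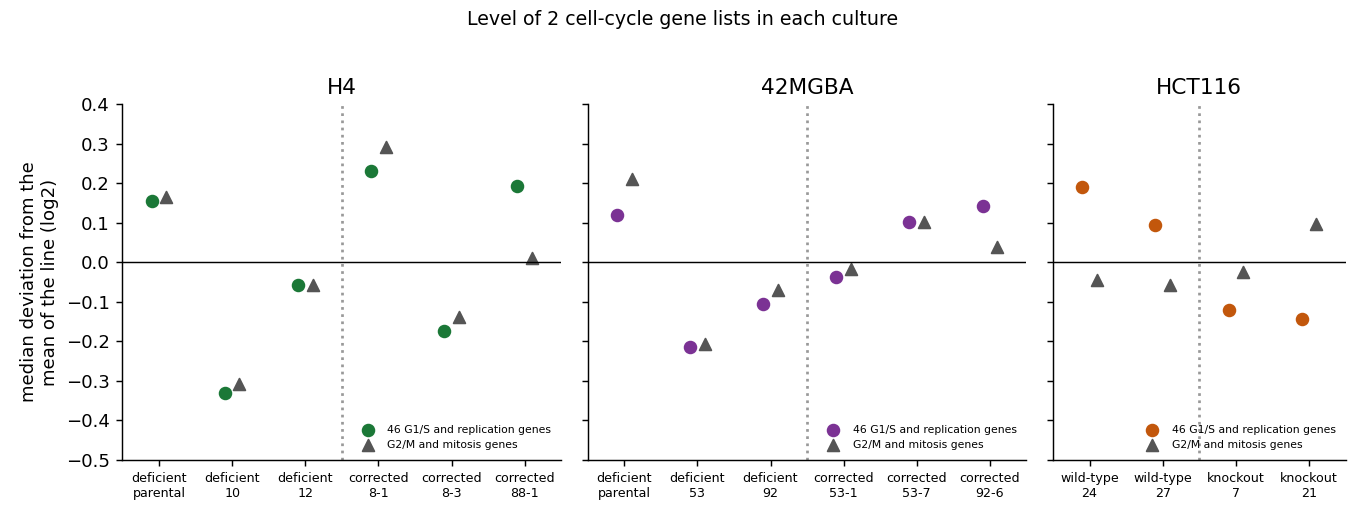
Median deviation from the line's mean (log2) in each array, over the 46 members (circles) and the 29 G2/M genes (triangles). In H4 clone 10 (-0.33) and corrected clone 8-3 (-0.18) have the low member medians; in HCT116 both wild-type arrays lie above 0 and both knockout arrays below it for the members.

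The 29 G2/M and mitosis genes were low in the same H4 clones as the members, while in HCT116 most had a higher mean in the knockouts. Their array scores in H4 were 0.17, -0.31 and -0.06 in mutant and 0.29, -0.14 and 0.01 in corrected cultures, and clone 10 was the lowest array in 24 of 29. In 42MGBA they were 0.21, -0.21 and -0.07 against -0.02, 0.10 and 0.04. In HCT116 24 of the 29 had a higher mean in the knockouts, with a median of 0.10, and 13 were separated upward and 3 downward, against 18.5% and 22.1% of all genes. limma called 0 of 29, against 0.131% of all genes. At an unadjusted p under 0.05 there were 2, a share (6.90%) near the 7.83% of all genes in either direction. They were CENPE, a kinetochore motor, at 0.45 (limma adjusted p = 0.521) and TOP2A, the topoisomerase that untangles chromosomes, at 0.38 (limma adjusted p = 0.588). Clone 21 was the highest array in 19 of 29, against 27.6% of all genes, and without it the median was 0.03 with 17 of 29 higher. The difference between the lists within HCT116 was not tested.

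Whether the STAG2 difference of a member changed from line to line was tested directly. limma called 0 of 46 members between H4 and HCT116, against 0.293% of all genes, 0 between H4 and 42MGBA, against 0.254%, and 0 between 42MGBA and HCT116, against 0.0231%. At an unadjusted p under 0.05 there was 1 member between H4 and HCT116, against 13.5% of all genes in either direction, 0 between H4 and 42MGBA, against 11.3%, and 2 between 42MGBA and HCT116, against 4.85%. These were RFC5 in both comparisons and CCNE1 in the last. The larger HCT116 shift is therefore not shown to differ from that of the other lines.

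The lines themselves differed far more than the genotypes. With STAG2 present, corrected H4 against wild-type HCT116, limma called 37 of 46 members, every one lower in H4, where 29.0% of all genes were called lower and 23.7% higher. The median difference was -0.82, against -0.07 over all genes, and in 41 members the arrays of these groups were separated downward and in 0 upward, against 41.4% and 31.5% of all genes. All 6 H4 arrays lay below all 4 HCT116 arrays in 34 of 46 members, against 25.2% of all genes. The lines differ in tissue, culture history and clone, and these cannot be told apart here.

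The clamp loader, polymerase epsilon and the cyclin group held the largest of these differences. RFC5 was 2.98-fold lower in H4 (-1.58, SE 0.16, limma adjusted p = 9.96e-07), POLE2 2.87-fold (-1.52, limma adjusted p = 6.73e-06) and CDC25A 2.73-fold (-1.45, limma adjusted p = 1.57e-05). MCM10 at -1.37, CCNE2 at -1.18, PRIM1 at -1.16, CDT1 at -1.12 and RRM2 at -1.11 followed. In 3 of the role groups every member passed: the 5 cyclin and kinase genes, the 7 MCM genes and the 4 clamp and loader genes. The other 29 called members ran from MCM5 at -1.09 to SLBP at -0.46. The calls of MCM2, POLA1, E2F8, GINS2, TYMS, CHAF1A, GINS1 and SLBP were lost in at least 1 alternative on the log2 scale, with 29 of 46 called without HCT116 clone 24. On percentiles within an array 27 of the 37 remained called, where limma called 6388 of all genes, against 6844 on the log2 scale. The 10 lost were CDC6, GINS2, MCM2, MCM3, MCM5, MCM6, POLA1, RFC3, RFC4 and TYMS. Neither the MCM nor the clamp loader group therefore passed as a whole on that scale. Under every alternative 23 of the 37 were called, and the share of all genes called in that way was not computed.

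The 9 members that did not pass were UHRF1, E2F1, CHAF1B, GINS4, ORC1, GINS3, RRM1, POLD1 and POLA2. RRM1 differed by -0.02 (95% interval -0.53 to 0.49), POLD1 by 0.04 (-0.27 to 0.34) and POLA2, the regulatory subunit of polymerase alpha, by 0.10 (-0.25 to 0.46). POLA2 read 9.23, 8.87 and 9.28 in corrected H4 and 9.01 and 9.05 in wild-type HCT116. PRIM1, which works in one complex with POLA2, passed at -1.16.

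**Figure D5:**
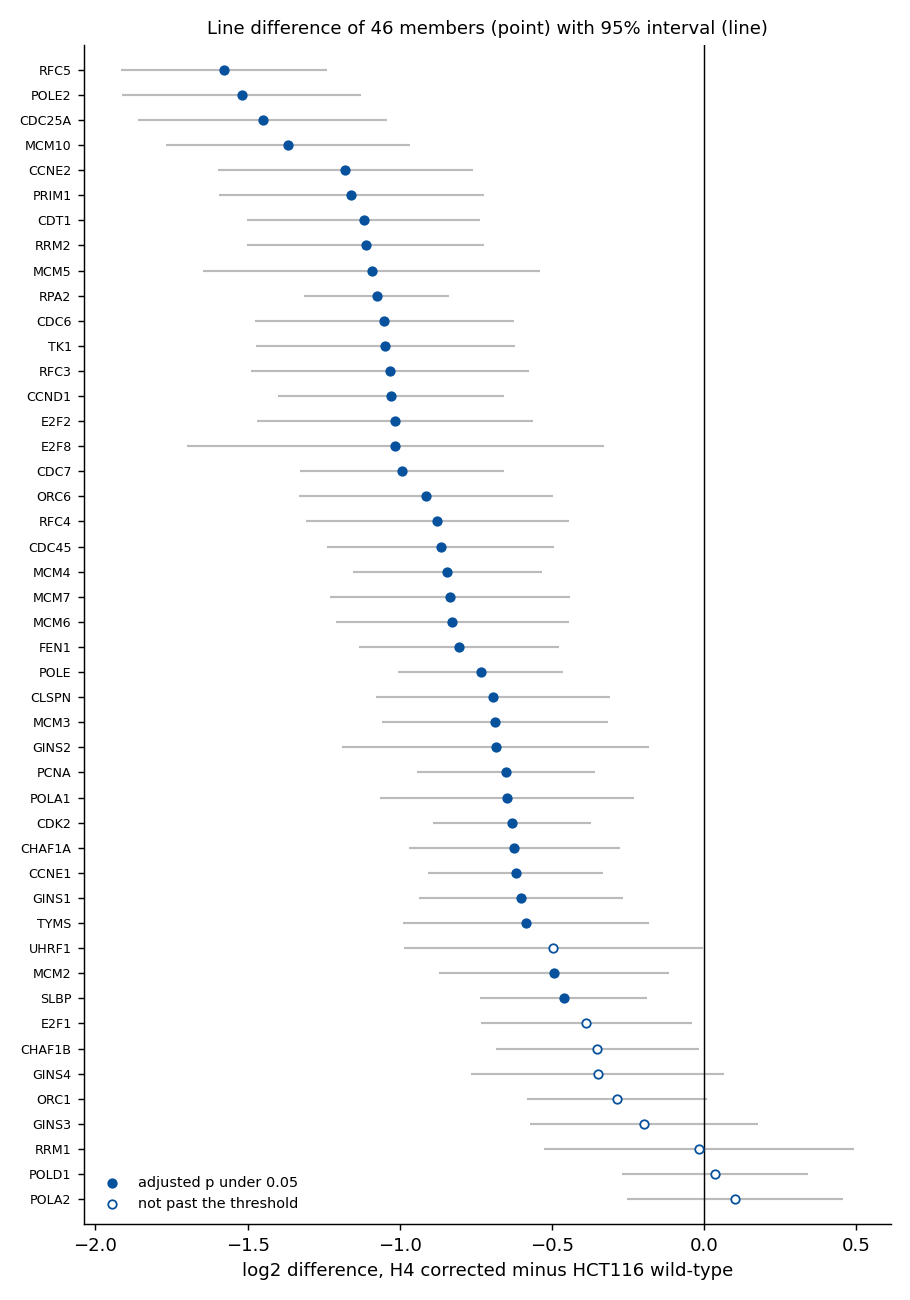
Difference of corrected H4 minus wild-type HCT116 (log2) with its 95% interval for the 46 tested members, ordered by size; filled points passed an adjusted p of 0.05. RFC5 (-1.58) and POLE2 (-1.52) are the largest, and POLD1 and POLA2 lie on the other side of 0.

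As percentiles within an array, which also allow 42MGBA to be set beside the others, the members' median was 89.7 in HCT116, 83.9 in H4 and 77.5 in 42MGBA, and 43, 36 and 26 of the 47 lay above percentile 75. Several members were lowest in 42MGBA. GINS2 stood at percentile 51.0 in 42MGBA, 82.8 in H4 and 88.8 in HCT116, CCNE1 at 58.9, 81.8 and 87.0, and E2F8 at 41.9, 59.4 and 74.5. The median of the histone supply, chromatin assembly and fork checkpoint group was 86.3 in 42MGBA, 84.7 in H4 and 89.7 in HCT116. Every other role median was lowest in 42MGBA, that of nucleotide supply by little (92.3, 93.3 and 95.6). Single members also ran against this order, of which CDC7 and E2F1 are examples. CDC7 was at 84.0 in 42MGBA but 62.2 in H4 and 75.3 in HCT116, and E2F1 at 83.0, 72.0 and 76.1. The array ranges of both genes did not overlap between 42MGBA and the other lines. These percentiles are a description, without a test.

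Other genes of the pathway, 72 in 5 lists of which 69 were tested, had medians nearer to 0 than the members in each line. limma called 0 of 69 for STAG2 in H4, 42MGBA and HCT116, against 3.31%, 0.0% and 0.131% of all genes. At an unadjusted p under 0.05 there were 14, 4 and 9 (20.3%, 5.80% and 13.0%). The shares of all genes in either direction were 16.4%, 3.95% and 7.83%. The medians of the 69 were -0.04, -0.06 and -0.11. In HCT116 31 of the 69 were separated downward and 10 upward, against 22.1% and 18.5% of all genes. Among those separated downward were MCM9, a helicase of repair (-0.40), and TIPIN, a partner of claspin at the fork (-0.47). The 6 tested CDK inhibitors, which hold cyclin kinases in check, were split in HCT116. Of these 2 were separated upward, CDKN1B and CDKN1A, and 2 downward, CDKN2B and CDKN2D, against the same shares of all genes. CDKN1B read 7.61 and 7.83 in wild-type and 7.86 and 8.62 in knockout HCT116 (0.52, limma adjusted p = 0.554). CDKN1A read 8.28 and 8.06 against 8.93 and 8.35 (0.47, limma adjusted p = 0.610). CDKN2B read 6.51 and 6.68 against 6.48 and 6.31 (-0.20), and CDKN2D 7.88 and 7.71 against 7.63 and 7.56 (-0.19). In the corrected H4 against wild-type HCT116 comparison 33 of the 69 were called lower and 10 higher, against 29.0% and 23.7% of all genes.

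Cyclin D2, CCND2, gave the widest spread of the pathway in H4. It read 10.19, 5.56 and 10.34 in mutant and 10.32, 10.45 and 11.30 in corrected H4. The low value was clone 10, the array that was also lowest for most members, and the difference was -1.99 (SE 0.85, limma adjusted p = 0.246). CDKN1A was highest in the same clone, 8.77 against 8.15 to 8.23 in the other 5 arrays. The part of clone 10 in the H4 differences of the members beyond the values given without it was not tested.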

How the data were processed

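The authors deposited a table of log2 values for 16 Human Gene 1.0 ST arrays; the submitters' processing notes name Affymetrix Expression Console and RMA without versions, and the genome build of the annotation is not given in the sources used here. The log2 scale was read from the range of the values. The table has 33297 rows. The platform annotation gave 1 gene symbol to 19460, several to 1754 and none to 12083, and 19429 matched RefSeq names of GRCh38.p14. Each gene was represented by its single-gene row with the highest mean, and tested if that row exceeded the array median on at least 2 arrays. UHRF1 and CLSPN had 2 such rows. CDKN2C, on the lists of other genes, was not analysed here.

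A single model over all 16 arrays was fitted by limma 3.58.1 (lmFit, eBayes; R 4.3.3) with 6 groups that share 1 spread per gene, with two-sided p-values adjusted by Benjamini-Hochberg over 12978 genes and a threshold of 0.05. The fit was tested on simulated data in which noise was independent between genes and arrays. That test does not cover related clones or genes that move together. Arrays are called separated, or not overlapping, when every array of a group lies beyond every array of the other.

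The members, lists, tests and alternatives were chosen with earlier results of these data known. Named were STAG2, members past the threshold or, where fewer than 5 passed in a direction, those with the smallest p up to 5, the leading members of each role by the mean of lines and the line difference, up to 3 genes per other list, and the 3 members of largest spread per line. MCM3, MCM4, CHAF1B, SLBP and other members outside that rule are given to account for the list, and CDKN2B and CDKN2D, and CCND2 and CDKN1A in clone 10, were chosen after their values were seen. Promoter windows came from the RefSeq table of GRCh38.p14. The alternatives were other scalings, filters, row choices, variance models and sets of arrays.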

Additional observations from a re-analysis of the deposited data

Results flagged for a closer look

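No member met a rule for a closer look, and 4 other genes of the pathway did. In each the groups did not overlap in either of 2 lines and the lines went in opposite directions, while limma's test of the difference between lines did not pass. CCND3, cyclin D3, was higher in mutant H4 (0.34) and lower in HCT116 knockouts (-0.21), 0.56 apart (limma adjusted p = 0.128). ORC5, an origin recognition subunit, was at 0.48 and -0.28 in the same lines, 0.76 apart (limma adjusted p = 0.139). POLE4, a small polymerase epsilon subunit, was at 0.34 in H4 and -0.28 in 42MGBA, 0.62 apart (limma adjusted p = 0.188). SKP2, which targets CDKN1B for destruction, was at 0.37 in 42MGBA and -0.19 in HCT116, 0.56 apart (limma adjusted p = 0.885).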

How the results depend on the processing

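The numbers of called members were 0 in H4, 42MGBA, HCT116 and the mean of lines under every alternative but one, the H4 fit without the parental arrays, which called 1 (E2F8). Counts over all genes moved more. In H4 they were 34 with only the arrays compared and 165 with clones of 1 parent clone averaged. In HCT116 they were 3 with only the arrays compared, 11 with a trended robust fit and 10 with clones averaged. In the mean of lines they were 38 without the parental arrays, 7 with clones averaged and 46 for H4 and HCT116 alone. As percentile points the members' median in H4 against HCT116 was -4.91. The cause was not tested.

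Leaving out 1 array gave 169 to 631 called genes in H4, 0 to 9 in 42MGBA, 5 to 77 in HCT116, 3 to 61 in the mean and 5285 to 7071 in H4 against HCT116, where 29 to 40 members were called. The members' median then ran from -0.28 to -0.05 in H4, -0.21 to -0.04 in 42MGBA, -0.34 to -0.22 in HCT116, -0.25 to -0.16 in the mean and -0.89 to -0.70 in H4 against HCT116. It was -0.06 in H4 with array weights and -0.12 with arrays centred on their median.

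With the parent clone as a replicate block in 42MGBA the median was -0.24, 41 of 46 members were lower, 7 had an unadjusted p under 0.05 and 0 were called; E2F8 turned to -0.049. Signs also turned for named members near 0. Without the parental arrays E2F8 was -0.061 in 42MGBA, and CDK2 was -0.0052 in H4 and -0.0060 in 42MGBA; with array weights POLD1 was -0.017 in H4 against HCT116. Leaving out 1 array gave -0.031 to 0.118 for RPA2 and -0.031 to 0.124 for CDK2 in H4, -0.068 to 0.239 for CDC7, -0.061 to 0.313 for E2F8 and -0.020 to 0.152 for CDK2 in 42MGBA, and -0.042 to 0.169 for POLD1 in H4 against HCT116. STAG2 in HCT116 kept its value of -2.44 but did not pass when the 4 HCT116 arrays were fitted alone.

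Small differences are the limit of 2 or 3 arrays a group, 42MGBA lies on a narrower scale, and its STAG2 transcript does not check its labels.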
